A study of Mus musculus with 4 samples.

Results

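Kap, Acsm1, Acsm2, Acsm3, Hsd17b11, Hsd3b2, Azgp1 and Mogat1 are 8 of the 27998 genes counted in single cells of the mouse kidney during repeated glyoxylate injection. They were chosen from earlier results on these same cells, on their levels by day, by tubule segment and by the injury gene Havcr1, so every difference given below is a description and none is a test. Male C57BL/6 mice aged 6 to 8 weeks were injected into the peritoneum with glyoxylate, a precursor of oxalate, on 0, 1, 4 or 7 successive days (D0, D1, D4 and D7). Each time point has 1 droplet library of trypsin-digested kidney, and the sources used here do not say how many animals went into it. There are therefore no replicates, all intervals are 95% intervals for counting error only, and a difference between days cannot be told apart from a difference between animals or libraries.

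The proximal tubule reabsorbs most of the filtered solutes and burns fatty acids for energy, and in mice it is one of the tissues in which males and females differ most in gene activity. Kap encodes the kidney androgen-regulated protein, an abundant mouse proximal tubule product whose level depends on androgen. Acsm1, Acsm2 and Acsm3 encode mitochondrial acyl-CoA synthetases that activate medium-chain fatty acids, and Acsm2 also activates aromatic acids such as benzoate before they are joined to glycine. Hsd17b11 encodes a 17-beta-hydroxysteroid dehydrogenase that sits on lipid droplets, and Hsd3b2 a 3-beta-hydroxysteroid dehydrogenase, an enzyme class that converts steroid precursors into active hormones. Azgp1 encodes zinc-alpha-2-glycoprotein, a secreted protein that promotes fat breakdown, and Mogat1 encodes a monoacylglycerol acyltransferase, which makes diacylglycerol.

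In the mm10 (GRCm38) genome, Acsm2 (ENSMUSG00000030945, chr7:119554340-119600690), Acsm1 (ENSMUSG00000033533, chr7:119607026-119662515) and Acsm3 (ENSMUSG00000030935, chr7:119760923-119787513) all lie on the plus strand of chromosome 7. Kap (ENSMUSG00000032758) lies at chr6:133849851-133853762 on the minus strand, Hsd17b11 (ENSMUSG00000029311) at chr5:103989762-104021919 on the minus strand and Hsd3b2 (ENSMUSG00000063730) at chr3:98709255-98724543 on the minus strand. Azgp1 (ENSMUSG00000037053) lies at chr5:137981520-137990233 and Mogat1 (ENSMUSG00000012187) at chr1:78510991-78538173, both on the plus strand. All are annotated as protein-coding. Acsm1, Acsm3, Hsd3b2 and Mogat1 overlap genes on the opposite strand (Gm19950 and Gm45792, Eri2, Zfp697 and BC035947), and whether counting used the strand is not stated in the sources used here, so reads of these pairs cannot be told apart. In the last 500 bases of the longest annotated transcript, where 3′ libraries draw their reads, 0 of 451 50-base words of 7 of these genes occur in transcripts of another gene. Hsd3b2 is the exception, with 185 of 451 words (41.0%) shared with 68 other genes, of which 0 are other Hsd, Acsm or Mogat genes.

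The 250 bases before the annotated start are shown for Kap, because of its very high level, and for Acsm3, Hsd17b11 and Hsd3b2, the members past 1.5-fold lower at D4. The sequences are from RefSeq (GRCm38.p6), each read 5′ to 3′ on the gene's own strand. RefSeq starts are not always the ends of the GENCODE gene positions given above. The Kap and Hsd17b11 windows lie partly inside those positions. Among the windows not shown, those of Acsm1 and the second Acsm2 start lie wholly inside them, and those of Mogat1 and Azgp1 partly. Capitals mark matches, on either strand, to a TATA box (letters TATAAA), to a half-site bound by steroid hormone receptors or to a half-site of HNF1, a kidney transcription factor.
Kap, chr6:133853668-133853917, minus strand: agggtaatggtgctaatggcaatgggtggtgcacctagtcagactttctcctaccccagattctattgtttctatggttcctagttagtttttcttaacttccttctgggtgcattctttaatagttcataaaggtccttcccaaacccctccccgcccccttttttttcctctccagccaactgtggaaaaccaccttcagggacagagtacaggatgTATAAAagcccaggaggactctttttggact
Acsm3, chr7:119760673-119760922, plus strand: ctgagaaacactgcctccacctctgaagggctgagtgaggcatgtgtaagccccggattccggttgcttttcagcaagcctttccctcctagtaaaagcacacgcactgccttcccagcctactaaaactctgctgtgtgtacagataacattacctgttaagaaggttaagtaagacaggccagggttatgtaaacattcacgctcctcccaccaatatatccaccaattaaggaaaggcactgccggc
Hsd17b11, chr5:104021797-104022046, minus strand: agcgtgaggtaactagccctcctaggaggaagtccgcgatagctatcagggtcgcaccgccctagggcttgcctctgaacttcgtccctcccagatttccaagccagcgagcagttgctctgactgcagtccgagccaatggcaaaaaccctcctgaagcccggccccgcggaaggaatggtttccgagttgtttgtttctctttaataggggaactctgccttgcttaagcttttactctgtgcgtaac
Hsd3b2, chr3:98724544-98724793, minus strand: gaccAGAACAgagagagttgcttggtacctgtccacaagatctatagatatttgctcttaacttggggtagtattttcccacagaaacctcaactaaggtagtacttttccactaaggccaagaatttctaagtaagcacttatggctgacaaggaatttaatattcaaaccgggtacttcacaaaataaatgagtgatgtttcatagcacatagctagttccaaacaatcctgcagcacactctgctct
The Kap window holds the TATA box from 31 to 26 bases before the RefSeq start, a place inside the GENCODE position of Kap. At any position, 12.4% of 32851 such windows of the genome's genes hold it. The Hsd3b2 window holds the receptor half-site, searched as AGAACA, from 246 to 241 bases before the start, a match found in 16.1% of windows. Of the windows not shown, the first of 2 annotated Acsm2 starts has the TATA box from 28 to 23 bases before it and the HNF1 half-site on the other strand from 166 to 161, and Mogat1 has the HNF1 half-site from 151 to 146. This half-site, searched as GTTAAT, occurs in 6.43% of windows. The windows of Acsm1, Acsm3, Hsd17b11 and Azgp1, and the second Acsm2 start, hold none of the 3 motifs, which says only that these letters are not in these windows.

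Cells were taken as proximal tubule where they had at least 2 UMIs of Lrp2 and Slc34a1 together, 0 of Ptprc and at most 50% mitochondrial UMIs. Of the 16426, 12730, 16427 and 15087 deposited cell barcodes at D0, D1, D4 and D7, this gate kept 11751, 7635, 15040 and 12625. The libraries held between 85009491 and 99337001 UMIs. The shallowest deposited cell had 500 UMIs in the D0 and D1 libraries, 2919 in the D4 library and 2773 in the D7 library. Of 10 proximal tubule markers, 0 were at 0 in the gate on any day, and their summed level was 11530, 10476, 10340 and 9381 CPM by day, where CPM is a gene's summed UMIs scaled to the total of the gate's cells. Markers of other cells were present in it: the 9 leucocyte markers summed to 30.8, 48.5, 61.7 and 88.1 CPM with 1 at 0 on each day, the 4 endothelial markers to between 0.579 and 1.13 CPM, and the 8 markers of injured tubule to 389, 811, 1353 and 2484 CPM. The 4 thick ascending limb markers summed to 398, 360, 379 and 413 CPM by day. Of these sums the claudin gene Cldn10 made 316, 276, 285 and 277 CPM. The distal tubule, collecting duct and intercalated marker lists each summed to between 17.7 and 63.5 CPM. The part of all these markers' cells in the member levels was not tested. Any pair of libraries shared 50 to 81 cell barcodes, 0.393 to 0.537% of the smaller list.

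Across the gate, Acsm3 and Hsd17b11 were the members that differed most between D7 and D0, both lower, while Azgp1 and Mogat1 differed least. A member is called past 1.5-fold where its ratio of CPM passes that size in either direction with at least 100 UMIs in the pair; all 8 members had that many in each comparison by day. By that rule 1 member of 8 was past 1.5-fold at D1, against 4.84% of all 11484 genes with enough UMIs, 3 of 8 at D4 against 8.9% of 11768 genes, and 2 of 8 at D7 against 12.8% of 11840 genes. All of these calls were lower than D0, as were 1.38, 2.18 and 2.8% of all genes at D1, D4 and D7. The median log2 ratio over the 8 members was -0.29, -0.31 and -0.51 at D1, D4 and D7, beside 0.10, 0.03 and 0.07 over all genes. These days and cells chose the members, so nothing follows from the gap to all genes.

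**Figure D1:**
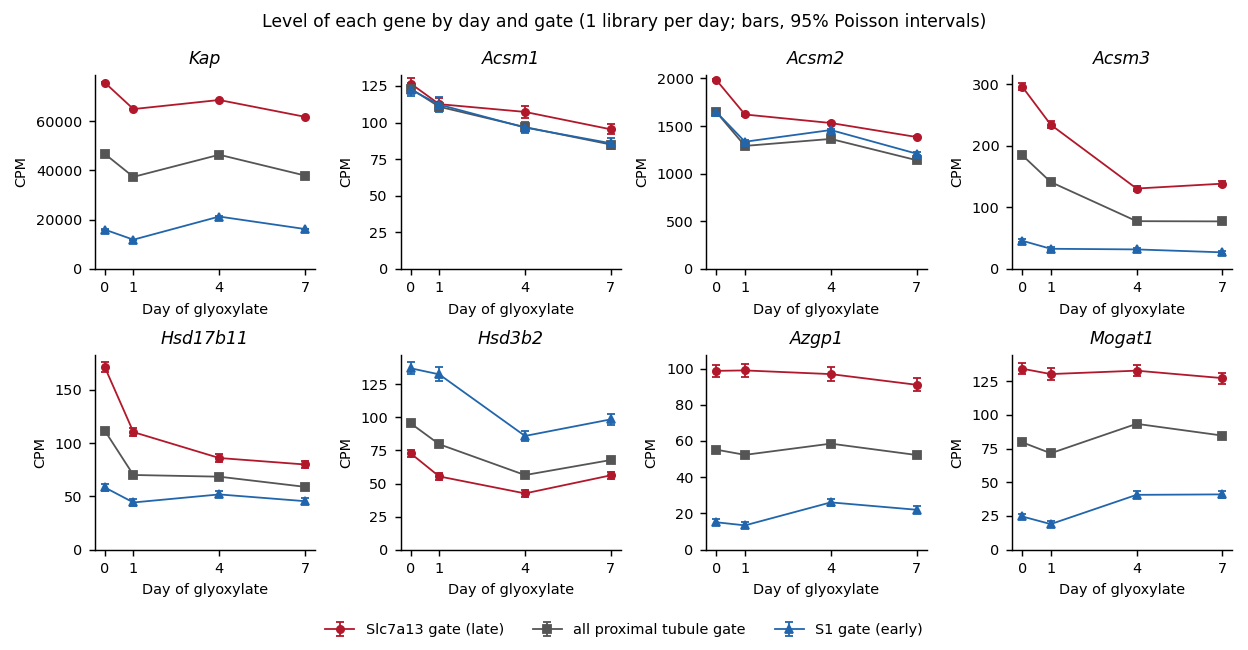
Level of each of the 8 genes in CPM (vertical axis, from 0) by day of glyoxylate (horizontal axis), in cells of the Slc7a13 gate, of the whole proximal tubule gate and of the S1 gate, with 95% Poisson intervals. In the Slc7a13 gate Acsm3 is at 138 CPM at D7 against 296 at D0 and Hsd17b11 at 79.8 against 171, while Azgp1 and Mogat1 stay between 91.0 and 134 CPM.

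Kap stood at 46682 CPM at D0, 37340 at D1, 46343 at D4 and 37888 at D7, so that 4.67% of all UMIs of these cells at D0 came from this gene. The D1 and D7 libraries were lower than the D0 and D4 libraries, and the level did not move in 1 direction with time. At D7 its ratio to D0 was 0.812 (95% interval 0.810 to 0.813), short of the 1.5-fold mark. Because Kap takes so large a share, its level enters the total of every other gene. With Kap left out of the total, the same members passed 1.5-fold on each day.

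Acsm3 was at 185, 141, 77.3 and 77.0 CPM at D0, D1, D4 and D7, nearly the same on the last 2 days. Its ratio to D0 was 0.419 at D4 (0.407 to 0.431) and 0.417 at D7 (0.405 to 0.429), and at D7 it was 67th from the bottom of 11840 genes by ratio. Acsm2 was at 1646, 1291, 1365 and 1141 CPM, and Acsm1 at 123, 111, 96.9 and 84.9 CPM. Both had their lowest level at D7, at 0.693 (0.687 to 0.699) and 0.689 (0.668 to 0.711) times D0, which is inside the 1.5-fold mark. The 3 synthetase genes thus had different time courses, Acsm3 with its largest step between D1 and D4 (0.549 at D4 over D1, 0.531 to 0.566).

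Hsd17b11 was at 112, 70.0, 68.4 and 58.9 CPM at D0, D1, D4 and D7, with its largest step already at D1. It was the 1 member past 1.5-fold at D1, at 0.627 times D0 (0.605 to 0.650), and was at 0.527 times at D7 (0.509 to 0.546). Hsd3b2 was at 95.6, 79.7, 56.4 and 67.8 CPM, lowest at D4 and higher again at D7. Its ratios to D0 were 0.590 at D4 (0.569 to 0.612) and 0.709 at D7 (0.685 to 0.734), and its D7 level was 1.20 times that at D4 (1.16 to 1.25). The steroid genes therefore differed in timing, Hsd17b11 lowest at D7 and Hsd3b2 at D4.

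Azgp1 was at 55.2, 52.3, 58.5 and 52.2 CPM at D0, D1, D4 and D7, and Mogat1 at 79.7, 71.6, 93.4 and 84.7 CPM. Their D7 ratios were 0.947 (0.907 to 0.987) and 1.06 (1.03 to 1.10), the ratios nearest to 1 among the 8. Each was lower than D0 at D1 and higher than D0 at D4. With edgeR's TMM scaling, which places the D1, D4 and D7 libraries 0.11, 0.04 and 0.09 lower on the log2 scale than total UMIs do, the Mogat1 ratio at D7 was 0.999, on the other side of 1. The same scaling put 5 members past 1.5-fold at D7, all lower, with Acsm1, Acsm2 and Hsd3b2 added to Acsm3 and Hsd17b11. The added members were only just past the mark, at 0.648, 0.652 and 0.6665 times D0. This scaling shifts every gene, and the share of all genes past the mark under it is not given here.

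The segment in which a cell sits set most of these levels apart. Proximal tubule cells were placed in an early S1 gate by at least 2 UMIs of Slc5a2 and Slc5a12, glucose and lactate transporters of the first segment (3318, 1874, 4293 and 3776 cells by day), and in a late gate by at least 3 UMIs of Slc7a13, an amino acid transporter of the last segment (3470, 2084, 3844 and 3620 cells). Both gates held 263, 117, 397 and 338 cells in common, and 44.1 to 49.7% of cells fell in neither. In the late gate against the S1 gate, 6 of 8 members were past 1.5-fold at D0 (21.9% of all genes), and likewise 6 of 8 at D1 (21.2%), at D4 (16.2%) and at D7 (16.8%). They were the same 6 on each day: Kap, Acsm3, Hsd17b11, Azgp1 and Mogat1 higher and Hsd3b2 lower in the late gate.

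Kap was at 75657, 64905, 68598 and 61757 CPM in the late gate at D0, D1, D4 and D7, and at 15907, 11815, 21214 and 16138 CPM in the S1 gate. The late gate was the higher of both on every day, by 4.76-fold at D0 (4.74 to 4.77), 5.49-fold at D1, 3.23-fold at D4 and 3.83-fold at D7. Acsm3 was at 296, 234, 130 and 138 CPM in the late gate and at 45.6, 32.4, 31.4 and 26.6 CPM in the S1 gate. Its ratio was 6.50 at D0 (6.11 to 6.91) and 5.19 at D7 (4.78 to 5.64).

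Azgp1 was at 98.8, 99.0, 97.0 and 91.0 CPM in the late gate and at 15.1, 13.4, 26.1 and 22.0 CPM in the S1 gate. Mogat1 was at 134, 130, 133 and 127 CPM in the late gate and at 24.6, 18.9, 40.7 and 41.0 CPM in the S1 gate. For these genes the late gate was nearly level over the days and the S1 gate stood above its D0 level on the later days, D4 and D7, so the late over S1 ratio was 6.55 at D0 and 4.14 at D7 for Azgp1 and 5.47 at D0 and 3.11 at D7 for Mogat1. Hsd17b11 was at 171, 110, 86.0 and 79.8 CPM in the late gate and at 58.3, 44.2, 51.7 and 45.4 CPM in the S1 gate, a ratio of 2.94 at D0 and 1.76 at D7.

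Hsd3b2 ran the other way, at 72.9, 55.4, 42.5 and 56.2 CPM in the late gate and at 137, 133, 86.0 and 98.6 CPM in the S1 gate. Its ratio was 0.531 at D0 (0.504 to 0.559) and 0.570 at D7 (0.535 to 0.607). Acsm1 and Acsm2 differed between these gates by less than 1.5-fold, at 1.03 (0.987 to 1.08) and 1.20 (1.19 to 1.22) times their S1 level in the late gate at D0. Cells in neither gate held Acsm2 at 1153 CPM at D0, below its 1647 CPM in the S1 gate and 1984 CPM in the late gate. Leaving out the cells in both gates widened the D0 ratios of Kap to 7.49, of Acsm3 to 12.6, of Azgp1 to 14.9 and of Mogat1 to 9.95.

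The levels also moved with Slc7a13 UMIs on either side of the limit of 3. A bin can mix cells of different kinds, so these levels do not tell a gradient from a step. At D0 Kap was at 13981 CPM in cells with 0 Slc7a13 UMIs, 43855 with 1 or 2, 70152 with 3 to 9 and 82597 with 10 or more. Mogat1 was at 20.2, 69.1, 124 and 148 CPM in the same bins and Hsd3b2 at 122, 97.0, 76.7 and 68.1 CPM. Acsm2 was at 1306, 1519, 1867 and 2131 CPM in them. The bins differ in depth, with median UMIs of 4423, 4554, 8139 and 12677 per cell, so cells just inside the limit are deeper than those just outside it.

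Within the late gate the day differences of Acsm3 and Hsd17b11 were still present. In the late gate 1 of 8 members was past 1.5-fold at D1 (Hsd17b11, against 3.87% of all genes), 3 at D4 (Acsm3, Hsd17b11 and Hsd3b2, against 7.5%) and 2 at D7 (Acsm3 and Hsd17b11, against 9.11%), all lower than D0 and the same members as in the whole gate. Hsd17b11 was at 0.466 times D0 there at D7 (0.445 to 0.489) and Acsm3 at 0.467 times (0.450 to 0.484). In the S1 gate 0 of 8 were past 1.5-fold at D1 (3.34% of all genes), 3 at D4 (5.42%) and 2 at D7 (9.09%). At D4 these were Azgp1 at 1.73 times D0 (1.52 to 1.97), Mogat1 at 1.65 times (1.49 to 1.83) and Hsd3b2 at 0.627 times (0.593 to 0.662). At D7 they were Mogat1 at 1.67 times (1.51 to 1.85) and Acsm3 at 0.585 times (0.530 to 0.644).

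Azgp1 and Mogat1 thus differed between days in the S1 gate and hardly at all in the late gate, where their D7 ratios were 0.922 (0.877 to 0.969) and 0.948 (0.908 to 0.989). Kap also took opposite directions at D4, at 0.907 times D0 in the late gate (0.905 to 0.908) and 1.33 times in the S1 gate (1.33 to 1.34). The difference between the gates was not tested, since each day has 1 library. Without the cells that were in both gates, the S1 ratio of Azgp1 was 2.77 at D4 and 2.47 at D7 and that of Mogat1 was 2.38 on both days. Cells in neither gate had Azgp1 at 1.65 times D0 (1.52 to 1.80), Mogat1 at 1.78 times (1.67 to 1.90) and Kap at 1.33 times (1.33 to 1.34) at D4, the directions of the S1 gate. At D7 Azgp1 was at 1.23 times (1.12 to 1.35) and Mogat1 at 1.43 times (1.33 to 1.53) there, both inside the 1.5-fold mark, and Kap at 0.941 times (0.938 to 0.944), the direction of the late gate. Acsm3 was at 0.376 times D0 in them at D7 (0.356 to 0.398), lower as in both gates.

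**Figure D2:**
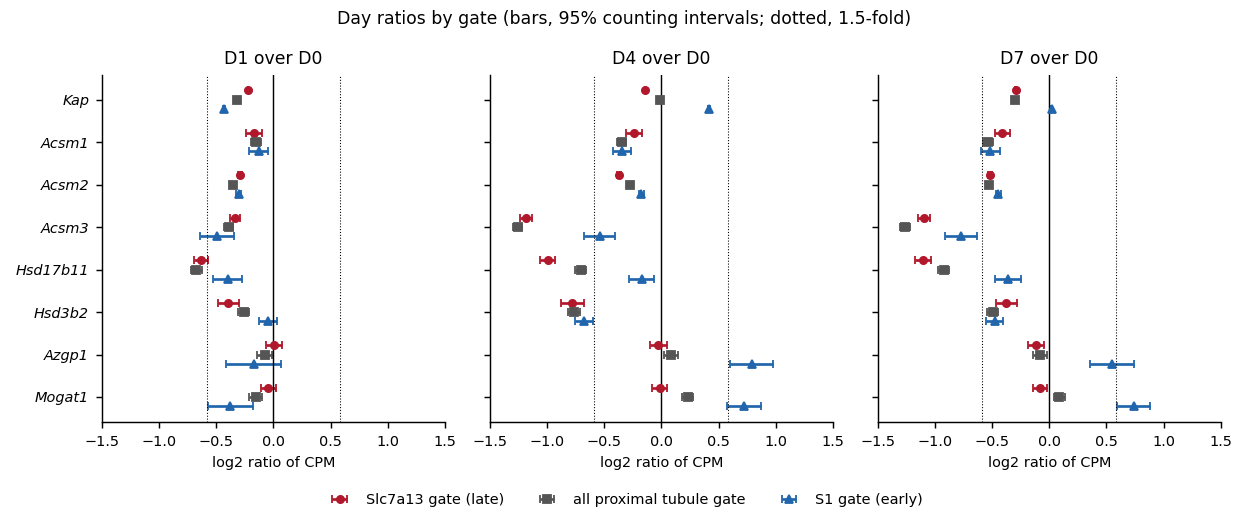
Ratio of CPM to D0 on a log2 axis for each of the 8 genes at D1, D4 and D7, in the late (Slc7a13), whole proximal tubule and S1 gates, with 95% counting intervals and dotted lines at 1.5-fold. At D7 Azgp1 and Mogat1 lie right of zero in the S1 gate (1.46 and 1.67 times D0) and just left of zero in the late gate (0.922 and 0.948 times).

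Single cells of the S1 gate fell into a low and a high group by Kap. In the late gate the median cell had 7.16, 6.08, 6.50 and 5.98% of its UMIs from Kap at D0, D1, D4 and D7. In the S1 gate the median cell had 0.216, 0.150, 0.869 and 0.280%. A limit of 1% was set between them after the distribution had been seen. Above it lay 99.6, 99.1, 99.8 and 99.6% of late-gate cells and 32.0, 24.4, 47.9 and 36.9% of S1-gate cells, with exact intervals in the S1 gate of 30.5 to 33.7% at D0, 22.5 to 26.5% at D1, 46.4 to 49.4% at D4 and 35.3 to 38.4% at D7. Between 0.5 and 2% lay 12.1, 11.4, 19.1 and 17.8% of S1-gate cells. Among S1-gate cells with at least 3000 UMIs the shares above 1% were 32.2, 23.7, 48.7 and 37.7%, and among those outside the late gate they were 26.4, 19.7, 42.8 and 30.8%, in the same order of days.

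**Figure D3:**
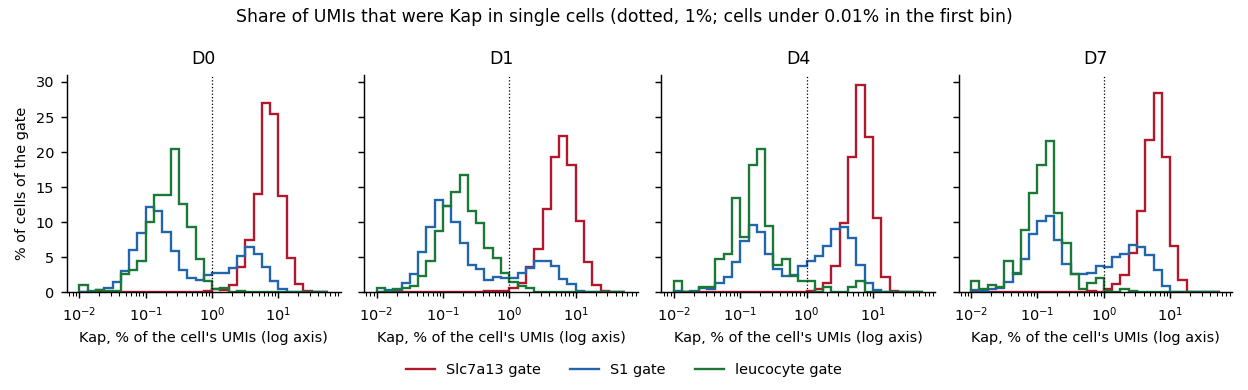
Share of each cell's UMIs that came from Kap (horizontal log axis, in percent) against the percent of cells of the gate (vertical axis), by day, for the late (Slc7a13), S1 and leucocyte gates. The S1 gate has 2 humps on either side of the dotted 1% line, the lower of which covers much of the same range as the leucocyte gate, and 47.9% of its cells are above the line at D4 against 32.0% at D0.

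Other members differed between these Kap-high and Kap-low cells of the S1 gate. At D0 Kap-high cells held Acsm3 at 106 CPM, against 11.0 in Kap-low cells, Mogat1 at 61.4 against 3.60, Azgp1 at 36.1 against 3.09 and Hsd17b11 at 102 against 33.6 CPM. Hsd3b2 was at 117 CPM in Kap-high and 149 in Kap-low cells. Kap-high cells of the S1 gate also held more Slc7a13 (250 against 16.9 CPM) and less Slc5a2 (340 against 668 CPM), so they lie between the gates on the segment markers. These classes are ranges of 1 gene and not cell types.

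Among Kap-high cells of the S1 gate, Mogat1 at D7 was at 1.15 times its D0 level (1.03 to 1.28), Azgp1 at 1.10 times (0.951 to 1.28) and Kap at 0.833 times (0.829 to 0.837). Acsm3 was at 0.506 times (0.456 to 0.562) and Hsd17b11 at 0.611 times (0.552 to 0.676). Among Kap-low cells, Mogat1 was at 18.3 CPM at D7 and 3.60 CPM at D0, a ratio of 5.08 (3.80 to 6.89), and Azgp1 at 8.26 and 3.09 CPM, a ratio of 2.67 (1.90 to 3.82). The Kap-low class itself differed between these days. Its Kap at D7 was at 1.37 times D0 (1.34 to 1.39) and its Slc7a13 at 1.33 times (1.13 to 1.58). The part of this shift in the ratios was not tested. Acsm3 was at 0.515 times D0 in Kap-low cells (0.389 to 0.676), close to its ratio in Kap-high cells. It was at 5.65 CPM there at D7 and 11.0 at D0, below its leucocyte-gate levels of 14.2 and 16.5 CPM. The part of RNA from outside these cells in this ratio was not tested. Hsd17b11 was at 33.6, 31.5, 32.0 and 32.5 CPM by day in Kap-low cells, where its D7 ratio was 0.967 (0.851 to 1.10). These levels were near those of leucocyte-gate cells, 35.0, 36.6, 31.8 and 31.5 CPM by day. How much of the Hsd17b11 in Kap-low cells was made by them was not tested. Mogat1 at 18.3 CPM in Kap-low cells at D7 compares with 3.71 CPM (6 UMIs) in leucocyte-gate cells of that library, while at D0 the Kap-low and leucocyte-gate levels were 3.60 and 4.12 CPM.

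Cells with at least 1 UMI of Havcr1, the kidney injury molecule gene that damaged proximal tubule cells switch on, numbered 8, 108, 460 and 580 at D0, D1, D4 and D7, and the 8 at D0 were too few to compare. Against Havcr1-negative cells of the same library, Havcr1-positive cells had 3 of 8 members past 1.5-fold at D1 (24.8% of all genes), 2 at D4 (18% of all genes) and 2 at D7 (17.9% of all genes). Across the whole gate Hsd3b2 was lower on all 3 days. It was at 44.4 CPM in Havcr1-positive and 80.5 in Havcr1-negative cells at D1, at 33.4 and 57.3 CPM at D4, and at 30.1 and 70.2 CPM at D7. The D7 ratio was 0.428 (0.361 to 0.505). Within the late gate Hsd3b2 was also lower, at 14.2 (9 UMIs) and 56.3 CPM at D1, 26.9 and 43.1 at D4, and 33.3 and 57.3 at D7. Within the S1 gate it was at 135 and 133 CPM at D1, 66.6 and 86.5 at D4, and 57.4 and 100 at D7, so not lower at D1.

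Acsm3 was higher in Havcr1-positive cells at D1 and D4, the opposite of its difference between days. It was at 216 CPM in Havcr1-positive and 139 in Havcr1-negative cells at D1, and at 168 and 73.8 CPM at D4, a ratio of 2.27 (2.08 to 2.48). At D7 the values were 90.2 and 76.1 CPM, a ratio of 1.18 (1.07 to 1.31). Within the late gate alone, with 32, 117 and 128 positive cells, the 3 ratios were 1.46 (1.27 to 1.67), 2.57 (2.29 to 2.88) and 1.65 (1.46 to 1.85). Within the S1 gate, with 17, 85 and 113 positive cells, they were 3.79, 3.37 and 1.66, from 23, 60 and 42 UMIs in those cells. The direction was thus the same in both gates. Positive cells of the S1 gate also held more Kap than negative ones. The values were 28192 against 11632 CPM at D1, 31171 against 20956 at D4 and 18703 against 16032 at D7. The part of segment inside the S1 gate was not tested.

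The D1 value depends on which cells are kept. With cells left out that carry at least 2 UMIs of other cell types' markers or lie in the top 5% of UMIs, 35 of 108 positive cells remained and the D1 ratio of Acsm3 was 0.893. A version of that filter added after seeing the data, without the claudin gene Cldn10, kept 78 cells and gave 0.897. At D4 the ratio was 2.10 and 1.86 under these filters, and at D7 it was 1.01 and 0.977.

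Havcr1 UMIs per cell gave a graded picture. At D4 Acsm3 was at 73.8, 127, 180 and 264 CPM in cells with 0, 1, 2 to 4 and 5 or more Havcr1 UMIs. At D7 the same bins held 76.1, 89.9, 95.7 and 82.3 CPM, with no such gradient. Hsd3b2 at D7 was at 70.2, 40.0, 20.3 and 15.1 CPM over the bins and Acsm2 at 1164, 938, 659 and 428 CPM, both lowest in the cells with most Havcr1. Kap at D7 was at 38272, 36603, 29059 and 21561 CPM, while at D4 it was between 43982 and 47553 CPM in every bin. Depth moved with the bins, with median UMIs per cell of 5617, 6967.5, 7947 and 10618 at D7, and its part in these gradients was not tested.

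**Figure D4:**
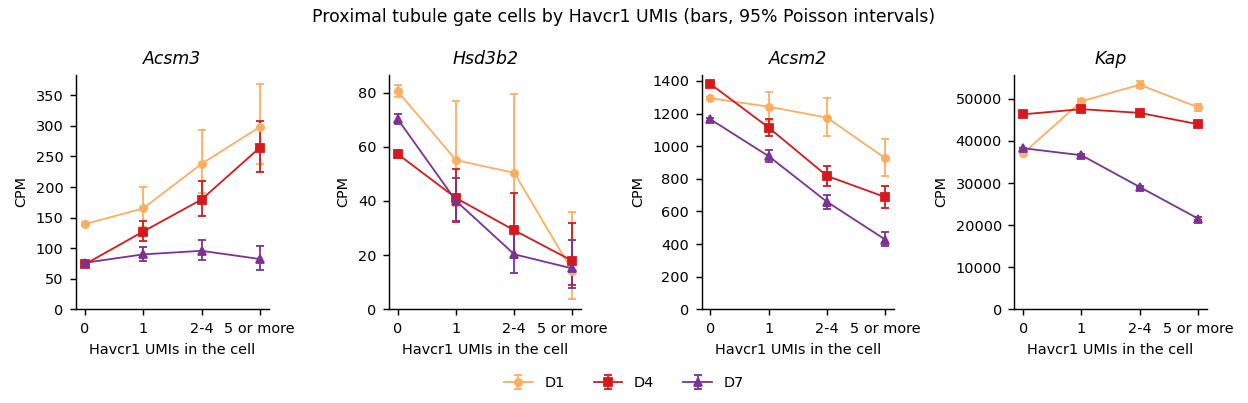
Level in CPM (vertical axis, from 0) of Acsm3, Hsd3b2, Acsm2 and Kap in proximal tubule gate cells with 0, 1, 2 to 4 and 5 or more Havcr1 UMIs at D1, D4 and D7, with 95% Poisson intervals. Hsd3b2 and Acsm2 are lower in each higher bin on all 3 days, whereas Acsm3 is higher in each higher bin at D1 and D4 only. At D1 the bins above 0 hold 58, 31 and 19 cells, with 4 Hsd3b2 UMIs in the highest bin. Intervals of several neighbouring D1 bins overlap.

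Acsm2 and Mogat1 were past the mark on 1 day each. Acsm2 was at 769 CPM in Havcr1-positive and 1164 in Havcr1-negative cells at D7, a ratio of 0.661 (0.639 to 0.683). Mogat1 was at 121 and 70.6 CPM at D1, a ratio of 1.71 (1.44 to 2.01), and at 109 and 83.2 CPM at D7, a ratio of 1.31 (1.20 to 1.43). Kap was at 50219 CPM in Havcr1-positive and 37082 in Havcr1-negative cells at D1, at 46629 and 46331 at D4, and at 31821 and 38272 at D7. Across the whole gate, the D1 value of Kap in Havcr1-positive cells is thus above and the D7 value below that of Havcr1-negative cells. Within the late gate the values were 67446 and 64845 CPM at D1 and 56703 and 61991 at D7. Within the S1 gate they were 28192 and 11632 CPM at D1 and 18703 and 16032 at D7, the opposite direction at D7.

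Kap was also counted in nearly every cell that is not proximal tubule. In cells of the leucocyte gate (at least 3 UMIs of Ptprc, Cd52, Coro1a and Laptm5, at most 1 of Lrp2 and Slc34a1), Kap was at 2367, 2017, 4049 and 1790 CPM at D0, D1, D4 and D7. That is 5.07, 5.40, 8.74 and 4.72% of its proximal tubule level. The median over 8 proximal tubule markers that were not used for the gates was 6.78, 7.17, 9.34 and 6.51% in the same leucocyte-gate cells, with single markers spread over 4.43 to 10.5% at D0, 3.93 to 9.88% at D1, 4.16 to 22.1% at D4 and 4.55 to 13.8% at D7. Kap lay below the marker median and within the marker range on each of the 4 days. After thinning every cell to 1000 UMIs, 88.1, 82.6, 81.1 and 74.2% of leucocyte-gate cells had a Kap UMI, against 92.6, 90.1, 96.3 and 93.6% of proximal tubule cells. Without thinning the shares were 98.4 to 99.3% and 99.8 to 99.9%, at median depths of 2005 to 3679 and 5014 to 6976 UMIs. A Kap UMI therefore does not mark a proximal tubule cell in these libraries.

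Other non-proximal gates held Kap too. It was at 3.43, 4.94, 9.80 and 3.42% of its proximal tubule level in the thick ascending limb gate (100, 154, 55 and 112 cells), and between 2.74 and 6.35% in the intercalated gate (22 to 52 cells). Per UMI of the 8 markers, leucocyte-gate cells held 0.597, 0.658, 0.506 and 0.438 times as much Kap as proximal tubule cells by day. In the leucocyte gate the median cell had 0.238, 0.196, 0.162 and 0.127% of its UMIs from Kap. The median was thus lower at D4 than at D0, while the share of summed UMIs was higher, 0.405 against 0.237%. The D4 sum was over 127 cells. Kap-low cells of the S1 gate had medians of 0.138, 0.112, 0.177 and 0.141%, a range in which Kap made by the cell and Kap taken up as free RNA were not told apart.

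Hsd17b11 was the member with the highest relative level in the leucocyte gate on each day. Its level in the leucocyte gate was 35.0, 36.6, 31.8 and 31.5 CPM at D0, D1, D4 and D7, which was 31.4, 52.3, 46.5 and 53.5% of its proximal tubule level. This was above the highest of the 8 markers on each day, from 51, 136, 16 and 51 UMIs. Acsm2 stayed between 6.65 and 8.90%, while Azgp1 with 1 to 8 UMIs and Mogat1 with 3 to 10 UMIs a library were counted too rarely there for a ratio. Acsm3 was at 8.91 and 7.45% at D0 and D1 and at 23.2 and 18.5% at D4 and D7, from 9 and 23 UMIs. Its D4 interval, 10.6 to 44.0%, holds the highest marker of that day, 22.1%. Acsm1 was at 6.12, 5.83, 18.5 and 14.5% by day, from 9 to 24 UMIs. The highest marker at D7 was at 13.8%. These counts are too small to place Acsm3 or Acsm1 above the markers. Hsd3b2 was at 7.89, 5.40 and 11.8% at D0, D1 and D7, from 11 to 16 UMIs, within the marker range, and had 2 UMIs at D4.

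**Figure D5:**
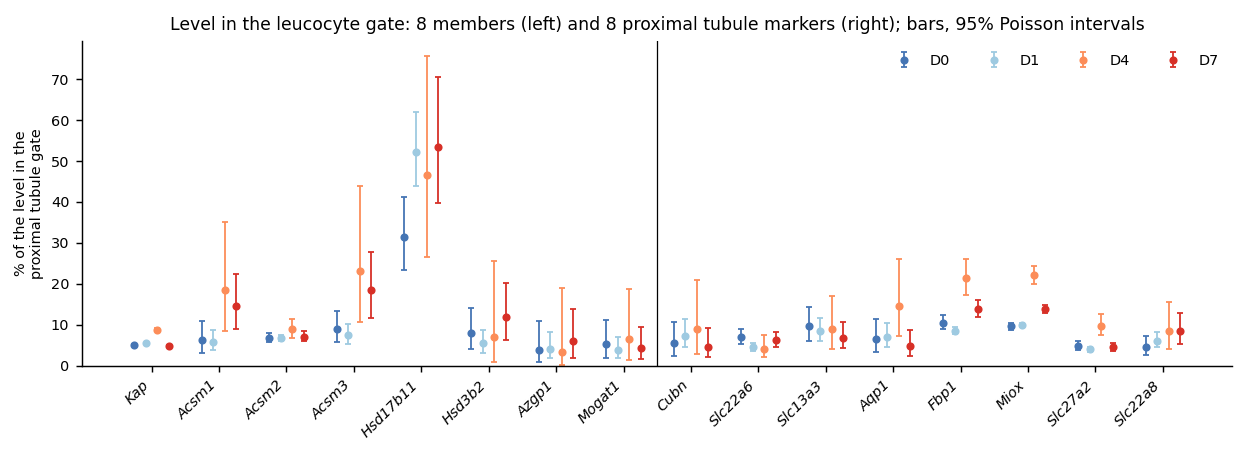
Level in leucocyte-gate cells as a percent of that in the proximal tubule gate of the same library (vertical axis, from 0), for the 8 genes and 8 proximal tubule markers (horizontal axis) by day, with 95% Poisson intervals. Hsd17b11 lies between 31.4 and 53.5%, above the other members and every marker of the same day, and Kap lies between 4.72 and 8.74%.

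Related genes were read from 7 lists, given here by their members past 1.5-fold at D7 over D0 in the whole proximal tubule gate, against 12.8% of all genes. Among 13 androgen-responsive or male-higher kidney genes, 3 were past it: Slco1a1, which encodes an organic anion transporter, at 0.396 times D0 (0.384 to 0.408), the cytochrome P450 gene Cyp4b1 at 0.634 times (0.628 to 0.640) and the steroid hydroxylase gene Cyp7b1 at 1.75 times (1.55 to 1.97). The median log2 ratio of this list was -0.30, beside 0.07 over all genes. Of 5 female-higher genes, 2 were past it, Slc7a12, an amino acid transporter gene, at 5.65 times D0 (4.69 to 6.84, from 9.41 and 1.67 CPM) and Cyp4a14 at 2.74 times (2.59 to 2.89), and the list's median was 0.51. Prlr, the prolactin receptor gene, was at 1.42 times (1.26 to 1.60).

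Of 13 other acyl-CoA synthetase genes with enough UMIs, out of 16 listed, 3 were past 1.5-fold at D7. Acss1, a mitochondrial acetyl-CoA synthetase gene, was at 0.50 times D0 (0.472 to 0.530), Acsl5 at 1.55 times (1.41 to 1.71) and Slc27a1 at 1.55 times (1.36 to 1.77), with a list median of -0.10. Among 3 measured glycine conjugation genes of 4 listed, Gm4952 alone was past it, at 0.387 times (0.308 to 0.485, from 110 and 276 UMIs). Keg1 was at 0.547 times D0 at D4 and 0.753 times at D7, and Glyat, the glycine N-acyltransferase gene, at 0.900 times at D7. The list median was -0.41.

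Of 11 measured hydroxysteroid dehydrogenase genes among 21 others listed, 2 were past 1.5-fold at D7, both lower. Hsd11b1, which regenerates active glucocorticoid, was at 14.8 CPM at D7 and 27.8 at D0, a ratio of 0.532 (0.495 to 0.571). Hsd11b2, a gene of the distal nephron, had 14 UMIs at D7 and 207 at D0. It is 1 of 4 collecting duct markers that summed to 19.5 CPM at D7 and 39.6 at D0 in this gate, and their part in the difference was not tested. Hsd17b7 was at 1.38 times D0 (1.27 to 1.51). The list's median was -0.07, and Hsd3b3, the near relative of Hsd3b2, was at 1.10 times D0 at D7 (1.06 to 1.14). Of 14 measured glycerolipid genes out of 16, Mgll was at 1.53 times (1.42 to 1.65) and Mogat2 at 0.616 times (0.561 to 0.675), and Agpat2 at 1.49 times was inside the mark, with a median of 0.19. Of 12 receptors and transcription factors, Cebpb was at 2.36 times (2.28 to 2.44), Esr1 at 0.570 times (0.472 to 0.685) and Cebpa at 0.642 times (0.576 to 0.717), with a median of -0.07.

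The members did not share a single pattern. Over 12 sums (4 days by S1 gate only, late gate only and neither gate), the Pearson correlation of log2(CPM + 10) was 0.98 between Kap and Azgp1, 0.98 between Kap and Mogat1, 0.99 between Azgp1 and Mogat1 and 0.90 between Kap and Acsm3. It was -0.88 between Kap and Hsd3b2 and 0.07 between Kap and Acsm1. These sums share libraries and depth, and the values are a description. Among 2931 genes with at least 50 CPM in 1 of the sums, the patterns most like Kap were those of Slc5a8, Reep5 and Cd36 (0.99 each), those most like Azgp1 were Nat8, Cd36 and Cyp2a4, and those most like Mogat1 were Nat8, Cyp2e1 and Slc5a10. Acsm3 was most like Gm4208, Gm15638 and Agps, Hsd17b11 like Pth1r, Tmco3 and Cyp4b1, and Hsd3b2 like Rab11fip3, Atxn1 and Aftph. Acsm1 was most like Cbs, Mccc1 and Hoxb3os and Acsm2 like St8sia1 and Acox3, at correlations between 0.87 and 0.96.

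Sorting the cells of each library into 5 equal groups by their share of Kap also sorted them by segment. At D0 Slc7a13 was at 10.9 CPM in the lowest and 934 in the highest group, and Slc5a2 at 511 and 21.7 CPM. The part of segment in the differences below was not tested. At D0, with Kap left out of the total, Acsm3 was at 7.60 CPM in the lowest and 314 CPM in the highest group, Mogat1 at 2.93 and 185 CPM, Azgp1 at 3.11 and 134 CPM and Hsd17b11 at 28.2 and 219 CPM. Hsd3b2 was at 135 CPM in the lowest and 70.6 CPM in the highest group, Acsm1 at 129 and 144 CPM and Acsm2 at 1257 and 2292 CPM. At D7 Acsm3 in the highest group was at 156 CPM and Hsd17b11 at 98.8 CPM, while Azgp1 was at 123 CPM and Mogat1 at 167 CPM. Median depth was 5932, 4124, 3726, 7601 and 7577 UMIs from the lowest to the highest group at D0.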

How the data were processed

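Per the labels' protocols, kidneys were digested with trypsin and DNase and made into 10x 3′ libraries. The authors deposited raw UMI counts per gene and cell barcode. Cell Ranger 3.1.0 and the mm10 build are named per the submitters' processing notes, software 3.0.1 per the file headers; the gene annotation and the rule for keeping barcodes are not stated in the sources used here. Gene positions are from GENCODE M21, matched by gene ID. UMIs were summed over the cells of a gate and scaled to the gate's total (CPM). With 1 library per time point no test was possible. Ratios carry exact 95% intervals for a pair of Poisson counts, and shares exact Clopper-Pearson intervals; both cover counting error only. The members, gates and lists were chosen with earlier results of these data known. Named genes are the 8 members, the 3 genes of each list with the largest change at D7 and the 3 genes most correlated with each member; Hsd3b3 was added after its values were seen, and 1 correlated gene is not reported here. Alternatives were a 2-fold limit, no minimum on UMIs, at least 3000 UMIs, at most 25% mitochondrial UMIs, a stricter proximal tubule gate, TMM scaling (edgeR 4.0.16, used for scaling only), Kap or mitochondrial UMIs left out of the total, a mean over cells, and doublet-type or Havcr1-positive cells left out. No doublet caller was run. The doublet filter without Cldn10, TMM scaling of the segment gates, segment shares held at D0 and the 1% limit on Kap were chosen after seeing the data. Ratios and intervals were tested on simulated data. Python 3.11.15, numpy 2.4.6, scipy 1.17.1 and pandas 2.3.3 were used.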

Additional observations from a re-analysis of the deposited data

Results flagged for a closer look

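Kap, Azgp1 and Mogat1 went in opposite directions in the late and S1 gates under the same comparison of days, with counting intervals on opposite sides of 1, and with 1 library a day the difference between the gates was not tested. For Kap at D4 the ratio to D0 was 0.907 in the late gate and 1.33 in the S1 gate, and at D7 it was 0.816 in the late gate and 1.01 in the S1 gate. For Azgp1 at D7 it was 0.922 in the late gate and 1.46 in the S1 gate. For Mogat1 at D7 it was 0.948 in the late gate and 1.67 in the S1 gate. The S1 ratio of Kap at D7 was 0.954 with TMM factors and 0.974 with doublet-type cells left out and Cldn10 not counted, both on the same side of 1 as in the late gate. Among S1-gate cells the share with at least 1% of UMIs from Kap was 36.9% at D7 and 32.0% at D0, and its part in these ratios was not tested.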

How the results depend on the processing

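No paired analysis was possible because each time point has 1 library. Of 103 alternatives to the counts of members past 1.5-fold, 86 stayed within 1.5 times of the reported count. With a 2-fold limit the counts were 0 at D1, 1 at D4 and 1 at D7 in the proximal tubule gate, 0 at D4 and 0 at D7 in the S1 gate, 0 at D1 and 1 at D4 in the late gate, and 0 at D1, 1 at D4 and 1 at D7 for Havcr1-positive cells. TMM factors gave 5 members at D7 in the proximal tubule gate, all lower, and 1 at D1 in the S1 gate. With doublet-type cells left out, 4 members were past the mark at D7 for Havcr1-positive cells, and with Cldn10 not counted 3 at D1 in the S1 gate and 1 at D1 for Havcr1-positive cells. With at least 2 Havcr1 UMIs the counts were 4 at D4 and 4 at D7. The shares of all genes past the mark under these alternatives are not given here. The counts therefore do not set the members apart from other genes. The Acsm3 ratio between Havcr1-positive and Havcr1-negative cells at D1 was 0.893 with doublet-type cells left out and 0.897 with Cldn10 not counted, the opposite direction. Kap in the leucocyte gate was 3.45% of its proximal tubule level at D0 and 4.11% at D1 with at least 3000 UMIs, 4.93% at D4 and 5.01% at D7 with at most 25% mitochondrial UMIs, and 43.1, 27.3, 59.5 and 45.2% at D0, D1, D4 and D7 with no limit on Lrp2 and Slc34a1, which lets in cells that carry both kinds of marker. Over 12 alternatives the D7 ratio in the proximal tubule gate ranged from 0.392 to 0.453 for Acsm3, from 0.496 to 0.566 for Hsd17b11, from 0.763 to 0.907 for Kap, from 0.890 to 1.07 for Azgp1 and from 0.999 to 1.24 for Mogat1. The doublet filter left out 54.9 to 64.0% of proximal tubule cells, and 12.7 to 20.5% with Cldn10 not counted. The causes of these shifts were not tested. The Havcr1 comparison at D1 rests on 108 positive cells.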
